A study of Rattus norvegicus with 7 samples.

Results

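The heat shock proteins and small chaperones described here are 10 rat genes, namely Hspa1a, Hspa8, Hspa4l, Hsph1, Cryab, Hspb1, Hspb8, Dnajb1, Hsp90aa1 and Hspd1. They were chosen by their signals on these same arrays together with their known roles, so their levels are given as a description and no test was made of them. A probe set was taken as a gene's own where the platform annotation gave that symbol alone. In this way 8 of the 10 genes were represented, out of 14217 genes with such a probe set in the whole series. They had 11 of the 31042 probe sets. Hsph1, Hspb8 and Dnajb1 had 2 probe sets each, and the other 5 genes had 1. Hspa8 shared its 1 probe set with Haus8l2, and Hsp90aa1 shared 2 with Hsp90aa1-ps17, so no value is given for either. All 11 probe sets passed a mean signal of 100 over the arrays, which was the limit for the fit across probe sets described further on.

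Spinal cords of Sprague-Dawley rat embryos at E15, freed of dorsal root ganglia and meninges, were dissociated and kept in primary culture for 3 days on a flexible membrane. The cells were then stretched cyclically at 0.5 Hz to a set strain of 10%. By the paper's methods the strain was uneven within a well, greatest at the edge and declining toward the centre. RNA was taken before stretching began (0 h) and after 2 h, 6 h, 12 h, 24 h, 48 h and 72 h of strain. The groups are thus 6 durations of strain and the unstrained 0 h culture, from embryos of 1 strain and 1 age, and the labels name no other agent or allele. Each time had 1 GeneChip Rat Genome 230 2.0 array, loaded with RNA pooled from 5 animals, so that none of the 7 arrays had a replicate. Each signal below is the MAS5.0 signal, a linear intensity that the authors scaled so that the trimmed mean of every array was 500. No unstrained culture at a later time was analysed here, so the duration of strain and the time in culture cannot be told apart. Each array read a whole culture, and fewer cells of a type cannot be told apart from less RNA per cell.

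Heat shock proteins bind unfolded or damaged proteins and either hold them in a soluble state or help them to refold. The small heat shock proteins hold unfolded chains without using ATP, J-domain proteins hand such chains to HSP70, HSP110 proteins release the nucleotide from HSP70 so that it can work again, and the chaperonins fold proteins inside a closed chamber. Many of these genes are switched on by the transcription factor HSF1, which binds a heat shock element made of short GAA units in alternating orientation. In the spinal cord, small heat shock proteins such as Cryab and Hspb1 are known from astrocytes and from injured motor neurons.

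The promoters are shown first, because the choice by signal did not use sequence. The genes were also chosen for their known roles as heat shock proteins, many of which HSF1 switches on. The shares below are therefore not independent of that choice, and nothing is read from them. Promoter windows of 300 bases, 250 before and 50 after the annotated start, were taken from RefSeq on the rat build GRCr8, and 8 of the 10 genes had one. Cryab and Hsp90aa1 had none in the table used here. Both strands were searched for 3 adjoining units, spelled GAANNTTCNNGAA or TTCNNGAANNTTC. This pattern was present in 3 of the 8 windows (37.5%), those of Hspa8, Hspd1 and Hsph1, beside 267 of all 33469 promoters (0.798%) and 5 of the 90 windows of other chaperone genes (5.56%). The matches are printed 5′ to 3′ on the strand of the gene with the matched units in capitals, as the strongest matches among these genes.
Hsph1, chr12:10427318-10427358, plus strand: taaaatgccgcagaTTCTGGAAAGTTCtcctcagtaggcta
Hspa8, chr8:50080445-50080485, plus strand: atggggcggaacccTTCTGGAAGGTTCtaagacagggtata
Hspa8, chr8:50080287-50080327, plus strand: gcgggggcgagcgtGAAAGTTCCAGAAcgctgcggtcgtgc
Hspd1, chr9:64084248-64084287, minus strand: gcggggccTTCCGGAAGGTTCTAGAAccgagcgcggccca
The run of units in Hspd1 extended over 18 bases, and that window overlaps the window of Hspe1, the gene next to it. The annotated start used for Hspd1 lay 295 bases inside the listed gene.

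None of the matches above lay at Hspa1a, Hspa4l or Cryab, which had the highest ratios at 72 h among the genes measured, and for Cryab no window was searched. The Hspa1a window held neither the 3-unit pattern nor the shorter pattern of 2 units, GAANNTTC or TTCNNGAA. The Hspa4l window held only 1 match of 2 units, which began 38 bases after the start, and the windows of Hspb1, Hspb8 and Dnajb1 likewise held only matches of 2 units. These shorter matches are printed because they are the only ones that the windows of these genes held.
Hspa4l, chr2:125668370-125668395, plus strand: gtgacttggtatagTTCCTGAAatgt
Hspb1, chr12:26432409-26432444, minus strand: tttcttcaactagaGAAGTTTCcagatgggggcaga
Hspb8, chr12:45837271-45837306, plus strand: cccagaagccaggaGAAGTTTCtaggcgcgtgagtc
Dnajb1, chr19:41431131-41431166, minus strand: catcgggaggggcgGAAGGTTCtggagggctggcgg
Hspb1 and Dnajb1 each held 2 such matches, of which the first is shown. The start used for Hspb8 lay 1409 bases inside the listed gene. The 2-unit pattern, which every 3-unit match also contains, was found in 7 of the 8 windows (87.5%), beside 15.9% of all promoters. A match is a run of letters and not a measured binding site, and a window without one says nothing of elements elsewhere.

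The signals of these genes fell into a late, large difference for Hspa1a, Hspa4l and Cryab, a smaller late difference for Hspb8 and Hsph1, and values close to the 0 h level for Hspb1, Dnajb1 and Hspd1. The measure of size was that of the study's methods, a ratio to 0 h of at least 2 or at most 0.5 together with a difference in signal of at least 200. It was passed upward by 3 of the 11 probe sets at 72 h and by 3 at 48 h, in both cases Hspa1a, Hspa4l and Cryab. At 72 h 2.6% of all 31042 probe sets, with no limit on mean signal, passed it upward, and at 48 h 1.98% did. Because the genes were chosen on these signals, nothing is read from that contrast.

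**Figure D1:**
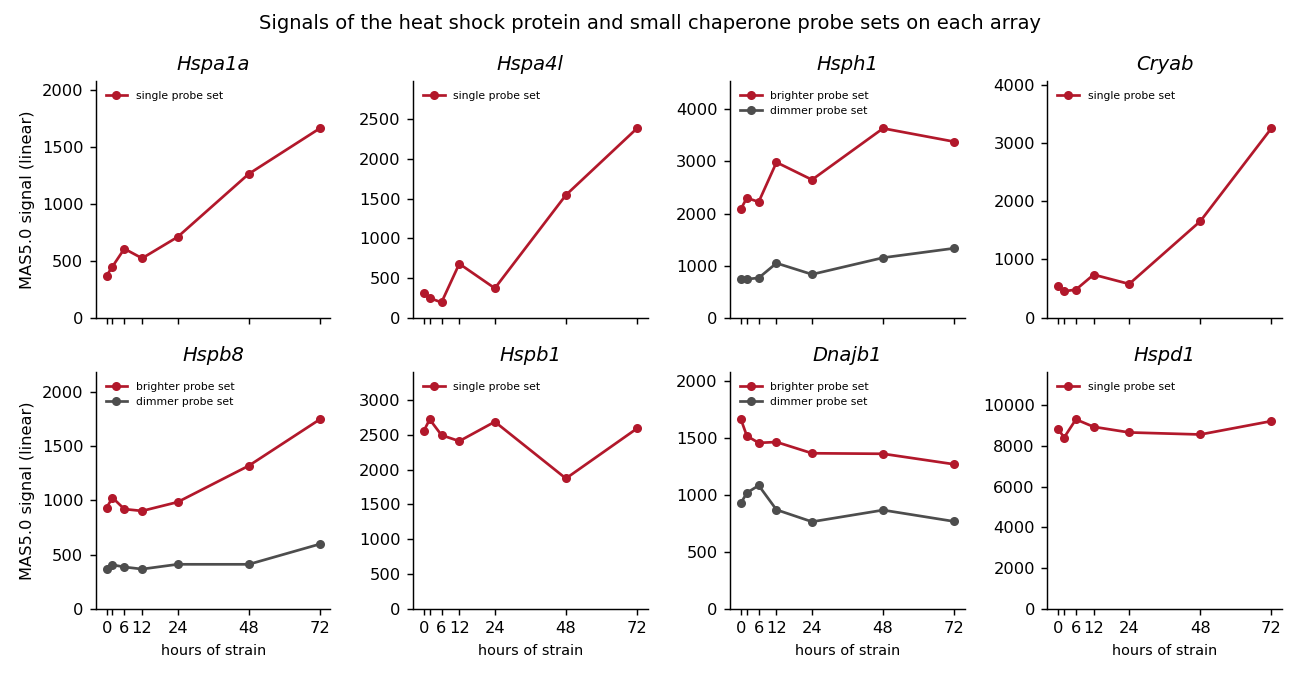
MAS5.0 signal (linear axis from 0, own range in each panel) of the 11 probe sets of 8 chaperone genes against hours of strain; each point is 1 array of RNA pooled from 5 animals and there are no error bars because no time was replicated. Hspa1a, Hspa4l and Cryab had their highest signals at 72 h, 1663, 2384 and 3248, while Hspd1 stayed between 8416 and 9316.

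Hspa4l encodes a member of the HSP110 branch of the HSP70 family, found mainly in testis in the adult and named for its likeness to Hspa4. Its signal was 310.0 at 0 h, 247 at 2 h, 193 at 6 h, 679 at 12 h, 370 at 24 h, 1544 at 48 h and 2384 at 72 h. The time course was not smooth. The 6 h array was the lowest, 0.621 times the 0 h signal, the 12 h array stood apart at 2.19 times, and the 24 h array was back at 1.19 times. The 48 and 72 h arrays were the highest, at 4.98 and 7.69 times the 0 h signal. The highest array was 12.4 times the lowest, the widest range among the 11 probe sets, and at 72 h 0.175% of the 17709 probe sets whose signal averaged at least 100 had a higher ratio.

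Hspa1a encodes the main stress-inducible HSP70. Its signal was 368.5 at 0 h, 449 at 2 h, 606 at 6 h, 522 at 12 h, 709 at 24 h, 1263 at 48 h and 1663 at 72 h. Every strained array was above the 0 h array, beginning with 1.22 times at 2 h and 1.64 times at 6 h. At 24 h it was 1.92 times, just under the ratio of 2 that the measure of size asks for, and at 48 and 72 h it was 3.43 and 4.51 times. Hspa1a therefore differed from Hspa4l early: at 6 h, 96.3% of those 17709 probe sets had a lower ratio than Hspa1a and 9.82% a lower one than Hspa4l. Hspa1b is a near-identical copy of Hspa1a, and a further probe set that the annotation gives to both was not used, so signal from the copy in the Hspa1a probe set is uncertain.

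Hsph1, the HSP110 protein that acts as a nucleotide exchange factor for HSP70, was read by 2 probe sets. The brighter one had signals of 2089 at 0 h, 2299 at 2 h, 2223 at 6 h, 2983 at 12 h, 2648 at 24 h, 3635 at 48 h and 3379 at 72 h. The dimmer one had 749.8 at 0 h, 740 at 2 h, 764 at 6 h, 1047 at 12 h, 832 at 24 h, 1151 at 48 h and 1333 at 72 h. Both probe sets were higher at 12 h than at 24 h, and both were highest on the last 2 arrays. They differed in which of these was the higher: the 72 h signal was 0.930 times the 48 h signal in the brighter probe set and 1.16 times in the dimmer one. At 72 h the ratios to 0 h were 1.62 and 1.78, which is short of 2.

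Cryab encodes alpha B-crystallin, a small heat shock protein that is abundant in lens, muscle and reactive astrocytes. Its signal was 545.1 at 0 h, 453 at 2 h, 481 at 6 h, 738 at 12 h, 578 at 24 h, 1654 at 48 h and 3248 at 72 h. The first 5 arrays lay within 453 to 738, and the last 2 were far above them. The ratio to 0 h was 3.03 at 48 h and 5.96 at 72 h, and the 72 h signal was 1.96 times the 48 h signal.

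Hspb8, a small heat shock protein that works with Bag3 in selective autophagy, was read by 2 probe sets. The brighter one had 932.4 at 0 h, 1025 at 2 h, 919 at 6 h, 902 at 12 h, 984 at 24 h, 1319 at 48 h and 1747 at 72 h. The dimmer one had 363.7 at 0 h, 405 at 2 h, 385 at 6 h, 366 at 12 h, 409.6 at 24 h, 409 at 48 h and 596 at 72 h. The 72 h array was the highest in both, at 1.87 and 1.64 times the 0 h signal, which is short of 2. The probe sets disagreed at 48 h, where the ratio was 1.41 in the brighter and 1.13 in the dimmer one.

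Hspb1 encodes HSP27, which also protects the actin cytoskeleton. Its signal was 2552 at 0 h, 2720 at 2 h, 2494 at 6 h, 2408 at 12 h, 2686 at 24 h, 1871 at 48 h and 2589.5 at 72 h. The 48 h array was the lowest, 0.733 times the 0 h signal, and the other 6 arrays lay within 2408 to 2720. Hspb1 thus had its lowest signal at 48 h, when Cryab, Hspa4l and Hspa1a were already above all their earlier arrays.

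Dnajb1 encodes HSP40, the J-domain protein that brings unfolded chains to HSP70. Its brighter probe set had 1663 at 0 h, 1517 at 2 h, 1457 at 6 h, 1464 at 12 h, 1365 at 24 h, 1361 at 48 h and 1269 at 72 h. The dimmer probe set had 928 at 0 h, 1018 at 2 h, 1082 at 6 h, 869 at 12 h, 764 at 24 h, 866 at 48 h and 766 at 72 h. Both were below their 0 h signal from 12 h on, and at 72 h the ratios were 0.763 and 0.826. They went apart at 2 and 6 h, where the dimmer one was above its 0 h signal and the brighter one below.

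Hspd1 encodes HSP60, the chaperonin of the mitochondrial matrix. Its signal was 8861 at 0 h, 8416 at 2 h, 9316 at 6 h, 8949 at 12 h, 8673 at 24 h, 8572 at 48 h and 9230 at 72 h. It was the steadiest of the 11 probe sets, and its highest array was 1.11 times its lowest.

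The 12 h array was the first on which several of these genes stood above their early level, and they were lower again at 24 h. Hspa4l was the only one of the 11 probe sets past the measure of size at 12 h, where 0.419% of all 31042 probe sets passed it upward. The 24 h signal was 0.545 times the 12 h signal for Hspa4l, 0.783 times for Cryab, and 0.888 and 0.795 times for the 2 probe sets of Hsph1. For Hspa1a it was 1.36 times, so this dip was not shared by all. Among the 17709 probe sets with the higher mean signals, 0.570% had a lower ratio of 24 to 12 h than Hspa4l and 8.53% a lower one than Cryab. Each of these times rests on 1 array, and no replicate of the 12 or 24 h array exists to set the dip against.

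No probe set of these genes passed the measure of size upward at 2, 6 or 24 h, when 0.0387%, 0.351% and 0.496% of all 31042 probe sets did. None passed it downward at any time. The downward shares over all 31042 probe sets were 0.47% at 2 h, 1.22% at 6 h, 1.71% at 12 h, 1.31% at 24 h, 3.05% at 48 h and 3.54% at 72 h. The ratio to 0 h was above 1 in 6, 6, 7, 8, 7 and 9 of the 11 probe sets at 2, 6, 12, 24, 48 and 72 h. Hsph1, Hspb8 and Dnajb1 each count with 2 probe sets here. The same share over all probe sets was not computed, so nothing is read from these counts. The median log2 difference from 0 h, on the log2(signal + 32) scale, was 0.49 at 48 h and 0.69 at 72 h over these 11 probe sets. Over the 17709 it was -0.02 and -0.004. At 2, 6, 12 and 24 h it was 0.091, 0.025, 0.014 and 0.08 over the 11, and -0.01, -0.035, 0.005 and -0.003 over the 17709. The genes were chosen on these signals, so nothing is read from this contrast either.

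**Figure D2:**
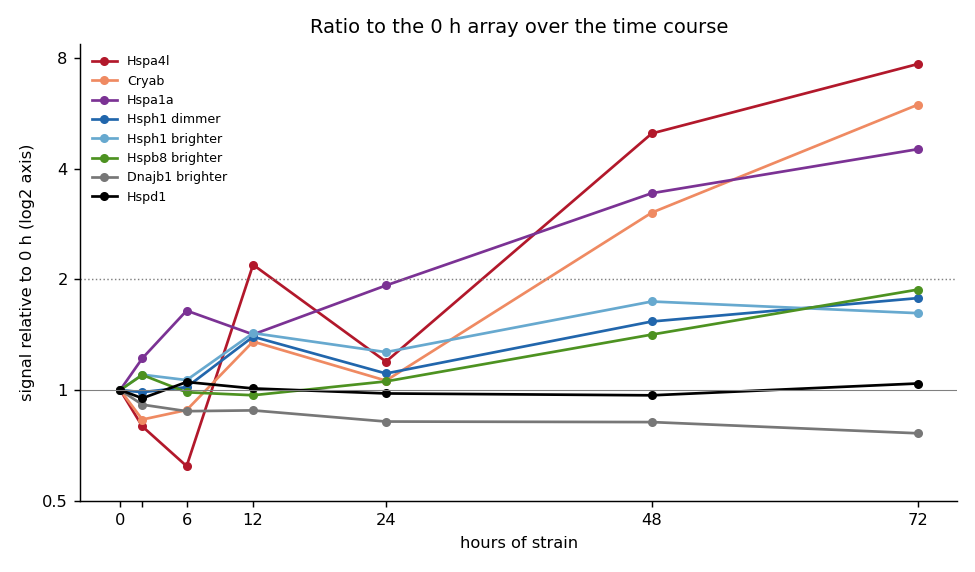
Signal divided by the signal of the 0 h array (log2 axis) against hours of strain for 8 of the 11 probe sets, 1 array per point; the dotted line marks a ratio of 2. Hspa4l, Cryab and Hspa1a reached 7.69, 5.96 and 4.51 at 72 h, and Hspa4l alone was above the dotted line at 12 h.

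The genes with late high signals were set together by their 48 and 72 h arrays, so high correlation among them follows in part from that choice. Hspa1a and Hspa4l went apart earlier, with ratios to 0 h of 1.64 and 0.621 at 6 h. Over the 7 arrays, which all these values share, Pearson's r of log2(signal + 32) was 0.97 between Hspa4l and Cryab, 0.91 between Hspa1a and Cryab and 0.86 between Hspa1a and Hspa4l. Hspa4l and the dimmer Hsph1 probe set had an r of 0.98. Hspb1 had an r of -0.43 to Hspa1a, -0.495 to Hspa4l and -0.40 to Cryab. Its 48 h array was low, but at 72 h its signal was 1.01 times that at 0 h. To Hspa1a, Hspa4l and Cryab the brighter Dnajb1 probe set had -0.92, -0.71 and -0.75, and the dimmer one -0.58, -0.69 and -0.625. These coefficients are descriptions over 7 points and say nothing of a shared control.

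The nearest genes outside this group are given for each of the 3. The search covered 3022 probe sets with 1 symbol, a signal that averaged at least 100 and a log2 range of at least 1 over the 7 arrays. For Hspa1a the nearest was Ptgs2, which encodes the inducible cyclooxygenase, with an r of 0.994 and a 72 h ratio of 21.6, then Serpina3n, a serine protease inhibitor of reactive astrocytes, with an r of 0.991 and a ratio of 49.3, and Ppp1r12c, a myosin phosphatase subunit, with 0.989 and 2.52. For Hspa4l the nearest was Nupr1, a stress-induced nuclear protein, with an r of 0.991 and a ratio of 6.12, then Spen, a transcriptional repressor, with 0.986 and 2.87, and the unnamed gene LOC102548944 with 0.986 and 5.50. For Cryab the nearest was Zfp592, a zinc finger gene, with an r of 0.996 and a ratio of 2.26, then Vamp1, a synaptic vesicle protein, with 0.989 and 12.4, and Ddr1, a collagen receptor, with 0.985 and 2.01. The 0 h signals of Serpina3n, LOC102548944 and Vamp1 were under 100, at 88.3, 77.0 and 75.7, so their ratios rest on a low baseline. Of the chaperones of the group only Hspa1a, Hspa4l and Cryab met these limits. The nearest of them was Cryab for Hspa1a, at rank 249, and for Hspa4l, at rank 30, and Hspa4l for Cryab, at rank 32. With so few members among the 3022 probe sets, closer genes outside the group were likely beforehand, and nothing is read from these ranks. The other probe sets of the group varied too little to enter the search, although the dimmer Hsph1 one had a higher r to Hspa4l (0.976) than Cryab had.

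Other chaperone genes were called in both directions, and most in neither. A list of 107 other chaperone genes was described by a linear change of log2(signal + 32) with hours over the 7 arrays, fitted with limma on all 17709 probe sets and adjusted by Benjamini-Hochberg over all of them. Of the 107 genes, 98 had a probe set of their symbol alone and 89 were tested on their brightest probe set. At an adjusted p under 0.05, 12 rose, 11 fell and 66 did neither. Over all 17709 probe sets 15.0% rose and 14.1% fell. The counts in the list lie near these shares, so nothing about chaperones is read from them or from the counts by role below. The calls depended on single arrays. Without the 72 h array 3 of the 12 still rose and 6 of the 11 still fell, while Dnajc27, Tcp1 and Clpp fell in addition. Without the 48 h array 6 of the 12 still rose and 7 of the 11 still fell, and without the 2 h array 8 and 8 did. The median log2 difference of these genes at 72 h was 0.02. With 1 array per time, the p-values measure the spread of single arrays around a straight line and not the spread between cultures.

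The first of the listed groups holds the heat shock factors and Hsbp1, a protein that binds them. Hsf1, the master regulator of the heat shock response, had 404.3 at 0 h, 395 at 2 h, 436 at 6 h, 488 at 12 h, 482 at 24 h, 658 at 48 h and 683 at 72 h, a fitted change of 0.77 ± 0.15 (SE) over 72 h on the log2 scale (limma, adjusted p = 0.00499, and 0.00451 to 0.0308 over the alternatives). Its last 2 arrays were the highest. Of the 3 genes of this group tested 2 rose and Hsbp1 did not pass. The second was Hsf2, also a heat shock factor, with a ratio of 1.32 at 72 h, whose call was lost without the 2, 48 or 72 h array (adjusted p up to 0.37).

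Of 8 other HSP70 and HSP110 genes tested, 2 rose and 2 fell on their brightest probe set. Hspa9 did neither on that probe set, but 1 of its 3 other tested probe sets rose. Hspa2, an HSP70 best known from the testis, had 379.4 at 72 h against 140.8 at 0 h and a fitted change of 1.37 ± 0.25 (limma, adjusted p = 0.00343, but 0.0756 without the 72 h array), and between 2 and 24 h it stayed within 113 to 161. Hspa4, the nearest paralog of Hspa4l, had 2524 at 72 h against 1604 at 0 h, a fitted change of 0.74 (limma, adjusted p = 0.027, up to 0.304 over the alternatives and past 0.05 without the 48 or 72 h array). Its 6 h array was its lowest, 0.717 times the 0 h signal, as it was for Hspa4l. Hspa5, the HSP70 of the endoplasmic reticulum known as BiP, fell to 7063 at 72 h, against 10478 at 0 h (limma, adjusted p = 0.0114, but 0.112 without the 72 h array). Hspa12a, a distant HSP70 relative expressed in neurons, fell to 165 against 438 (limma, adjusted p = 0.0374, up to 0.116 over the alternatives, the call being lost without the 0, 2, 24 or 48 h array).

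Among 12 HSP70 partner proteins tested, 2 rose and 1 fell. Bag3, which links HSP70 to small heat shock proteins, had 1165 at 0 h, 1471 at 2 h, 1393 at 6 h, 1682 at 12 h, 1473 at 24 h, 1973 at 48 h and 2245 at 72 h. Its 24 h signal lay below its 12 h signal, as for Hspa4l, Cryab and Hsph1, and its fitted change was 0.75 (limma, adjusted p = 0.00625, but 0.0684 without the 72 h array). Hspbap1, which encodes a protein that binds HSP27, had 399 at 72 h against 234 at 0 h (limma, adjusted p = 0.00662, but 0.0607 without the 72 h array). St13, an HSP70 cochaperone, fell to a ratio of 0.778, a call that was also lost without the 72 h array (adjusted p = 0.196).

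The J-domain proteins are the largest family of the list, and 24 of the 30 tested passed in neither direction. Dnaja4 rose on its brightest probe set, with 1656 at 72 h against 819 at 0 h (limma, adjusted p = 0.0255, up to 0.0977 over the alternatives and past 0.05 without the 2, 48 or 72 h array), while its other probe set did not pass. Dnajb9, of the endoplasmic reticulum, rose (limma, adjusted p = 0.00742, and 0.00569 to 0.0378 over the alternatives). Dnajc19, of the mitochondrial protein import motor, fell to 1192 against 2355, a fitted change of -1.14 ± 0.15 (limma, adjusted p = 0.000972), and its relative Dnajc15 of the same membrane fell to 834 against 1563 (limma, adjusted p = 0.00166). Both calls held without any single array. Dnajb5 fell to 166 against 455 (limma, adjusted p = 0.0302, up to 0.144 and past 0.05 without the 48 or 72 h array). Dnajc3, of the endoplasmic reticulum, fell to a ratio of 0.734, a call lost without the 2, 6, 12, 48 or 72 h array (adjusted p up to 0.578 over the alternatives).

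Of the HSP90 system, the 3 other HSP90 genes were Hsp90ab1, Hsp90b1 and Trap1. Hsp90ab1, the constitutive cytosolic form, had 12062 at 72 h and 12161 at 0 h (limma, adjusted p = 0.80). Hsp90b1, the form of the endoplasmic reticulum, fell to 5384 against 8310 (limma, adjusted p = 0.00305, and 0.00304 to 0.0468 over the alternatives). Among 13 HSP90 partner proteins tested 3 rose and 1 fell. Chordc1, which binds HSP90, had a ratio of 1.51 (limma, adjusted p = 0.00554, but 0.0789 without the 72 h array). Unc45a, a myosin chaperone, had a ratio of 1.39 and the cyclophilin Ppid 1.21, while the immunophilin Fkbp5 fell to 0.699. The calls of Unc45a and Fkbp5 were lost without the 2 or 48 h array (adjusted p up to 0.0781 and 0.0642), and that of Ppid without any 1 of the 6 arrays after 0 h (up to 0.282). Serpinh1, the collagen chaperone of the endoplasmic reticulum, fell to 5125 against 8672 (limma, adjusted p = 0.00406), and its call held without any single array.

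The small heat shock proteins and the chaperonins completed the list. Of the other small heat shock genes only 2 were bright enough to be tested. Hspb6, known from muscle and heart, had 525 at 0 h, 540 at 2 h, 297 at 6 h, 449 at 12 h, 550 at 24 h, 798 at 48 h and 792 at 72 h, and rose (limma, adjusted p = 0.034, but up to 0.134 over the alternatives, past 0.05 without the 12, 24, 48 or 72 h array). Its 6 h array was its lowest. Hspb2, which lies next to Cryab in the genome, had 19.5 at 72 h and 87.2 at 0 h and was too dim to be tested. Of 17 chaperonin, prefoldin and mitochondrial partner genes none rose on the brightest probe set. On it 1, the prefoldin subunit Pfdn5, fell to 0.701 times its 0 h signal (limma, adjusted p = 0.00969, but 0.124 without the 72 h array). The 2 other tested probe sets of Clpb, a gene of this list, did rise. Hspe1, the HSP10 partner of Hspd1, had 6818 at 72 h and 7757 at 0 h (limma, adjusted p = 0.134).

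**Figure D3:**
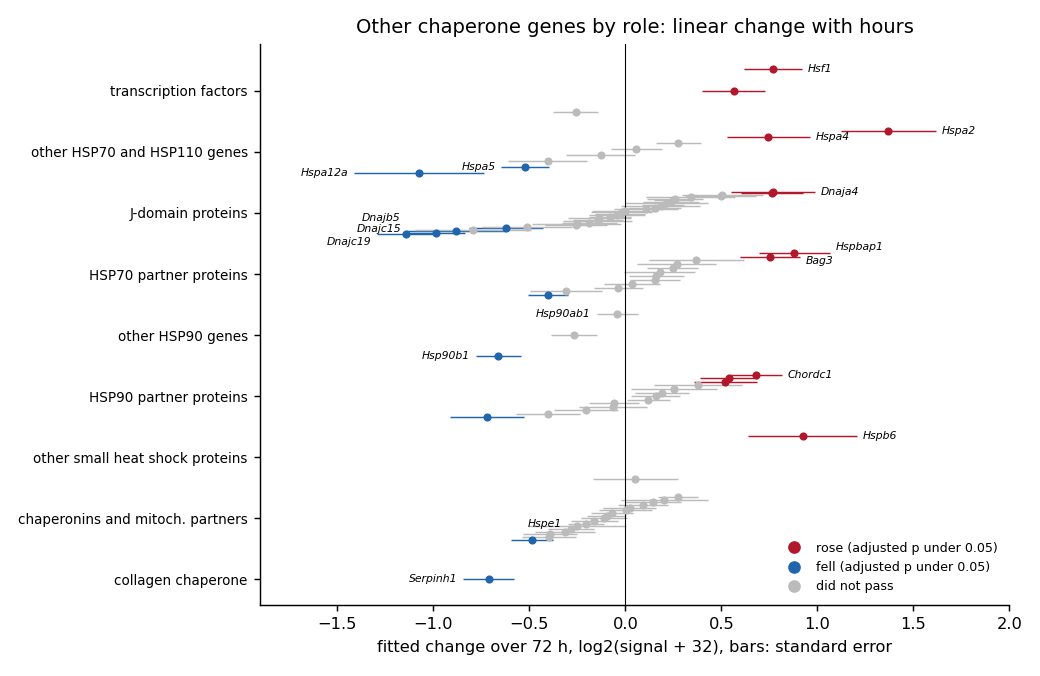
Fitted linear change over 72 h on the log2(signal + 32) scale (x axis) of the 89 other chaperone genes tested, grouped by role down the page; each point is the gene's brightest probe set over 7 arrays and each bar is the standard error of the fit. Red points (12 genes) rose, blue points (11 genes) fell and grey points (66 genes) did neither.

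The promoter patterns of these genes are given beside the calls. The 3-unit pattern was found in the windows of Cct4, Chordc1, Dnaja1, Hspe1 and Serpinh1, of which Chordc1 rose, Serpinh1 fell and the others did neither. The 2-unit pattern was found in 4 of 11 windows of genes that rose, those of Bag3, Chordc1, Hspa2 and Hspb6 (36.4%), and in 1 of 8 windows of genes that fell, that of Serpinh1 (12.5%). The share was 17 of the 90 windows of other chaperone genes (18.9%) and 15.9% of all promoters. All 4 of these rising calls were lost without the 72 h array, while that of Serpinh1 was kept. No test was made of these shares, and nothing is read from them.

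Cell type markers moved over the same hours and are given beside these results. The summed signal of 8 neuron markers was 4584 at 72 h and 16292 at 0 h, a ratio of 0.281, with its lowest value, 3739, at 48 h. Of these markers, 7 had a mean signal of at least 100, Syt1 being the exception. The 8 astrocyte markers summed to 47712 at 72 h and 49855 at 0 h, with a range of 34411 at 6 h to 56937 at 24 h. The sum hides members that went different ways. At 72 h Gfap, Aldh1l1 and Fabp7 stood at 0.622, 0.383 and 0.827 times their 0 h signals. Aqp4, Slc1a3, S100b and Gja1 stood at 1.22, 1.31, 1.23 and 1.07 times, and Slc1a2 was also above its 0 h signal. Slc1a2 was the only astrocyte marker with a mean signal under 100.

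The 8 microglia markers summed to 18703 at 72 h and 35620 at 0 h, after a high of 44984 at 6 h. Their 72 h ratios to 0 h ran from 0.175 for C1qc to 0.950 for Csf1r. Oligodendrocyte lineage markers summed to 4411 at 72 h and 6125 at 0 h over 7 genes, with Olig2 and Mog under 100. The others ran from 0.299 times for Olig1 to 1.12 times for Mag at 72 h. The sum of the 8 fibroblast and meningeal markers stayed between 68157 and 89390, although meninges had been removed. It too hides members that went different ways, from 0.269 times for Fbln1 to 1.85 times for Dcn at 72 h. Skeletal muscle genes, which the spinal cord itself lacks, were detected too. Cryab, Hspb6 and Hspb2 are also known from muscle, and 12 skeletal muscle markers summed to 3864 at 72 h and 14677 at 0 h, with 10 of 12 at a mean of at least 100. The muscle sum was 0.345 times its 0 h value at 24 h, 0.584 times at 48 h and 0.263 times at 72 h. The Cryab signal was 1.06, 3.03 and 5.96 times its 0 h value at these hours. The part of these shifts in the chaperone signals was not tested.

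**Figure D4:**
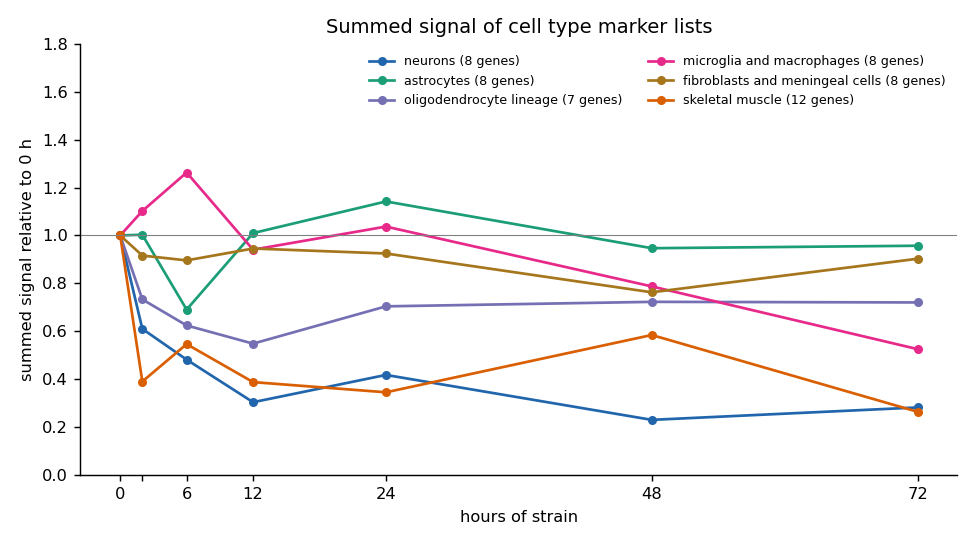
Summed signal of each cell type marker list divided by its sum at 0 h (linear axis from 0) against hours of strain, 1 array per point. At 72 h the neuron, skeletal muscle and microglia sums stood at 0.281, 0.263 and 0.525 times 0 h, and the astrocyte sum at 0.957 times.

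RNA quality, as far as the arrays show it, also moved with the hours. The ratio of the 3′ to the 5′ probe set of beta-actin was 1.82 at 0 h, 1.53 at 2 h, 1.83 at 6 h, 1.95 at 12 h, 2.20 at 24 h, 2.54 at 48 h and 2.62 at 72 h. That of Gapdh lay between 1.09 and 1.17. The arrays with the highest Hspa4l, Cryab and Hspa1a signals were therefore those with the highest beta-actin ratio, and the part of it in these signals was not tested. The medians of the arrays lay between 144.7 and 162.4, and 42.5% to 44.3% of the probe sets were below a signal of 100.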

How the data were processed

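RNA of cultured spinal cord cells was measured on 7 GeneChip Rat Genome 230 2.0 arrays, 1 per time. The deposited values are signal intensities that the authors computed with MAS5.0 in GCOS and scaled globally to a trimmed mean of 500. Trimmed means were 500.1 to 500.2. The arrays hold 31099 probe sets. The 57 control probe sets were not used, and of the others 20826 had 1 gene symbol in the platform annotation and 436 had several. The number of arrays limits the precision, since no time was replicated.

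The 10 genes and all gene lists were chosen with earlier results of these data known. Ratios to 0 h were described by the size rule of the study's methods. The trend with hours used limma 3.58.1 in R 4.3.3 (lmFit, eBayes with trend) on log2(signal + 32) over the 17709 probe sets whose signal averaged at least 100. The script was tested on simulated data. Genes were named by rule: all members, the 3 nearest genes of each member past the size rule at 72 h, and listed genes past the trend test with a 72 h ratio of at least 1.5 or at most 0.67, up to 4 per list and direction, plus Hsf1, Hspa5, Hspe1 and Hsp90ab1. Hsf2, Dnajb9, Ppid, Unc45a, Dnajc3, St13, Fkbp5, Pfdn5, Trap1, Hsbp1, Dnajc27, Tcp1, Clpp, Clpb, Hspa9 and Hspb2 fell outside it and were added after their values had been seen. Promoters came from RefSeq (GRCr8). Alternatives were other thresholds, scalings, baselines, pseudocounts, filters and forms of time, leaving out each array, and counting any probe set of a gene.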

Additional observations from a re-analysis of the deposited data

How the results depend on the processing

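At 72 h, 3 of the 11 chaperone probe sets passed the size rule. With a ratio of 1.5 and a difference of 100, 7 passed, adding both probe sets of Hspb8 and of Hsph1, and at 48 h 5 passed instead of 3. A ratio of 3, other scalings and a baseline of 0 and 2 h left these counts within 1.5 times. Under these scalings and that baseline the 72 h ratio was 4.07 to 4.76 for Hspa1a, 8.09 to 8.56 for Hspa4l and 6.27 to 6.51 for Cryab, and that of Hspb1 was 0.982 with the other baseline. Of the other chaperone genes 12 rose, and leaving out 1 array gave 3 to 13, with 6 when the 48 h array and 3 when the 72 h array was omitted. The number that fell was 11, and 7 to 11 with 1 array left out, with 7 when the 48 h array was omitted. Without the 72 h array it was 9, of which 6 were among the 11. Counting any probe set of a gene gave 14 that rose, with Hspa9 and Clpb added, and the same 11 that fell. Without any single array, Hsf1 and Dnajb9 still rose, and Dnajc15, Dnajc19, Hsp90b1 and Serpinh1 still fell. Hspa2, Bag3, Hspbap1, Chordc1, Hspa5, Pfdn5 and St13 lost their call without the 72 h array and no other. Hspa4 and Dnajb5 lost it without the 48 or 72 h array, Dnaja4 and Hsf2 also without the 2 h array, Unc45a and Fkbp5 without the 2 or 48 h array, Ppid without any array after 0 h, Dnajc3 without any of the 2, 6, 12, 48 and 72 h arrays, Hspb6 without any of the 12, 24, 48 and 72 h arrays, and Hspa12a without any of the 0, 2, 24 and 48 h arrays. With the square root or the rank of hours, Hsf2, Hspa4, Ppid, Hspb6 and Dnajc3 also lost their call, as did St13 with the rank (adjusted p = 0.0527). With no filter on mean signal Ppid, Hspb6, Hspa12a, Dnajb5 and Dnajc3 lost it, and Dnajc3 also with equal medians. Over all alternatives, 57 of 344 calls by gene and setting were lost and none reversed; the cause was not tested. Promoters with a match became 7 of 8 with 2 units in place of 3. No paired analysis was possible because each time had 1 array and the labels give no replicate numbers. Signals near background limit what can be read: 9 listed genes were below a mean of 100.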
